A study of Mus musculus with 2 samples.

Results

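The 7 genes described here encode the chains of mouse haemoglobin, the oxygen carrier of red blood cells. They are the adult alpha-type genes Hba-a1 and Hba-a2, the adult beta-type genes Hbb-bs and Hbb-bt, the embryonic alpha-type gene Hba-x and the embryonic beta-type genes Hbb-y and Hbb-bh1. They were taken by symbol from the 32285 genes of the count matrices. Both libraries were made from the dissociated cerebral cortex of embryonic day 16.5 mouse embryos of genotype WT, from the EomesDot line that serves as the Eomes-Cre control. RNA from single cells was counted with unique molecular identifiers (UMIs), which tag each captured transcript once at its 3′ end. There was 1 group and therefore no treatment comparison, and the labels give neither strain nor sex nor the number of embryos behind each library, while the study names C57BL6/J as the strain of its single-cell embryos. With nothing in the labels saying that the libraries came from separate embryos, the spread between them may be technical.

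Haemoglobin is built from alpha-type and beta-type chains in equal numbers. In the mouse, primitive red cells of the yolk sac make the embryonic chains, and definitive red cells, which come from the fetal liver at this age, make the adult chains. Red cells are not part of cortical tissue, but they reach a dissociated cortex with its blood vessels and remain as cells whose RNA is mostly globin.

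Of 9049 and 13556 barcodes in replicates 1 and 2, 5966 and 10247 passed the filter of 1500 to 60000 UMIs and under 10% mitochondrial UMIs. A cell was called globin-high when at least 30% of its UMIs came from the 7 genes, which gave 134 and 217 cells, 351 of 16213 in all. This was 2.25% of cells in replicate 1 (95% exact binomial interval 1.89 to 2.65) and 2.12% in replicate 2 (1.85 to 2.42). All intervals given here cover counting error only. Few cells lay near the limit: 7 and 12 cells had 20 to 30% globin, 4 and 8 cells had 30 to 40%, and the median of the globin-high cells was 76.6% and 74.6%. The lowest share inside was 33.0% and 31.1%, and the highest outside was 29.4% and 29.3%. The libraries shared 40 barcodes, which included 2 globin-high cells of replicate 1 and 0 of replicate 2.

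Markers of red cells other than globins were more frequent per cell in the globin-high cells than in the other cells. Their summed count had a median of 5 and 4 UMIs in globin-high cells and 0 in both libraries' other cells, and 90.3% and 88.9% of globin-high cells had at least 1 such UMI, against 7.96% and 7.07% of the others. Cortical markers were not absent from the globin-high cells, since 23.1% and 35.9% of them held a UMI of an excitatory neuron marker. The 6 and 15 cells of 30 to 50% globin held a mean of 7.5 and 5.53 such UMIs (median 0 and 1, highest 24 and 31). The 128 and 202 cells over 50% held a mean of 0.258 and 0.49, and 22.7% and 33.7% of them had at least 1.

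The promoters of 4 of the 7 genes are shown. They are those of the adult beta-type pair, whose balance varied between cells, and of an adult alpha-type gene found in every globin-high cell. Last comes the embryonic alpha-type gene, which was nearly absent from such cells. No link between the sequences and the counts was tested. The sequences are RefSeq's for GRCm38.p6 and run from 250 bases before to 50 bases after each start, 5′ to 3′ on the gene's strand, with matches to 4 short motifs in capitals, on either strand. The motifs searched were CACCC, which Klf1 and related factors bind, then CCAAT, which NF-Y binds, further GATAA, which contains the core recognised by Gata1, and lastly ATAAA, a part of the TATA box. Hbb-bs and Hbb-bt lie on the minus strand of chromosome 7, at chr7:103827879-103828178 and chr7:103813874-103814173. Hba-a1 and Hba-x lie on the plus strand of chromosome 11, at chr11:32283422-32283721 and chr11:32276350-32276649.
Hbb-bs: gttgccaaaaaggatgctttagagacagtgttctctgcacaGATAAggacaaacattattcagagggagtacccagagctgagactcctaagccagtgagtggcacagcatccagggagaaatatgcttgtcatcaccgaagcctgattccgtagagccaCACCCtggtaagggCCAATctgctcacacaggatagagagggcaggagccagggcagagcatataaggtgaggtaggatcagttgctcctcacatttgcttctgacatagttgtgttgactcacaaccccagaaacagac
Hbb-bt: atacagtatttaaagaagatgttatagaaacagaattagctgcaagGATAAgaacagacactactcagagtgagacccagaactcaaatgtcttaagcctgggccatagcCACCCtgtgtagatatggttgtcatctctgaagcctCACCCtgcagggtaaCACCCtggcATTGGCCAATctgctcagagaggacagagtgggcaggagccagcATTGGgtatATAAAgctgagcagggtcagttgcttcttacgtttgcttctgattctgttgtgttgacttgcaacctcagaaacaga
Hba-a1: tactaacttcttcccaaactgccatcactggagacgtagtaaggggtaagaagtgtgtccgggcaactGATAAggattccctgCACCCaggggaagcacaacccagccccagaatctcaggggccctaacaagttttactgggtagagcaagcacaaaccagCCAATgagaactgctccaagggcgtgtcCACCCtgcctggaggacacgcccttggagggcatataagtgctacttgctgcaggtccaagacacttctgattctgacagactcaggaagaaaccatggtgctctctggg
Hba-x: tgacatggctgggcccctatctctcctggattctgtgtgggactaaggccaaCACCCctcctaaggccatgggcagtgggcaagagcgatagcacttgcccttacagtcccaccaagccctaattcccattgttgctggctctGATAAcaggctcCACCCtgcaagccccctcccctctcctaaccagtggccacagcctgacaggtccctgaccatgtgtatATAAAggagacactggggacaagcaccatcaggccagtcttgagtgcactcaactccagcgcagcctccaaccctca

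Hbb-bt held 3 matches to CACCC and 3 to CCAAT, including an adjoining pair on opposite strands, whereas Hbb-bs held 1 of each. ATAAA was found in Hbb-bt and Hba-x, and not in Hbb-bs or Hba-a1. Both Hbb-bs and Hba-a1 hold ATATAAG before the start, which the searched word does not match. The missing match therefore does not mean that a TATA box is missing. Hba-x had no CCAAT match in the window. The Hbb-y promoter had 1 match to CACCC and 1 to CCAAT. It also had 1 match to GATAA on the opposite strand and 2 matches to ATAAA. These matches are common, since 57.5% of all 32851 promoters of this length held a match to CACCC and 37.4% to CCAAT. For GATAA the share was 25.4%, and for ATAAA it was 40.0%. The Hba-a1 and Hba-a2 promoters were identical over 297 aligned bases, and those of Hbb-bs and Hbb-bt matched at 219 of 293 aligned bases (74.7%).

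The genes lie in 2 clusters. On chromosome 11 the order is Hba-x (32276600 to 32278116), Hba-a1 (32283672 to 32284486) and Hba-a2 (32296492 to 32297310), with 5555 and 12005 bases between neighbours. On chromosome 7 the order along the minus strand is Hbb-y (103851754 to 103853207), Hbb-bh1 (103841638 to 103843162), Hbb-bs (103826523 to 103827928) and Hbb-bt (103812524 to 103813923). The transcripts of Hba-a1 and Hba-a2 matched at 646 of 647 aligned bases (99.8%), and 46.4% of the 90-base windows in the last 300 bases of Hba-a1 also occurred in Hba-a2. For Hbb-bs and Hbb-bt the identity was 92.1%, and 23.7% of such windows were shared. Reads from the shared stretches cannot be assigned to 1 gene, so the split between Hba-a1 and Hba-a2, and to a smaller extent that between Hbb-bs and Hbb-bt, is uncertain. The embryonic beta-type transcripts shared no such window with Hbb-bs.

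Hbb-bs was the most abundant globin RNA. It took 51.3% and 51.4% of the globin UMIs of globin-high cells in replicates 1 and 2. Hba-a1 followed with 19.6% and 19.8%. Hbb-bt held 14.8% and 14.5%, and Hba-a2 held 14.3% in both. The order was the same in both libraries, and the last pair were close to each other. Each of the 4 adult genes was detected in every globin-high cell. The median cell of replicate 1 held 1038.5 UMIs of Hbb-bs, 372 of Hba-a1, 309 of Hbb-bt and 275.5 of Hba-a2. In replicate 2 these medians were 1245, 466, 315 and 332, so that Hba-a2 and Hbb-bt exchanged places per cell. Over all barcodes of the libraries, including those that failed the filter, Hbb-bs ranked 7th and 5th of all genes by UMIs.

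**Figure D1:**
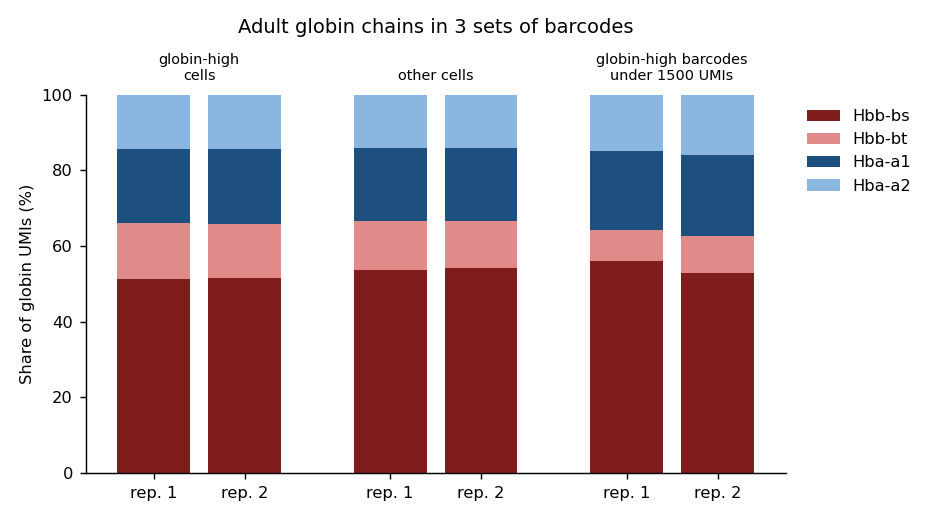
Bars show the share of globin UMIs (%) held by each adult globin gene, in each replicate, for globin-high cells, for the other cells and for globin-high barcodes under 1500 UMIs. Hbb-bs takes 51.3% and 51.4% in globin-high cells, and the Hbb-bt segment is smallest in the barcodes under 1500 UMIs.

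Summed over globin-high cells, alpha-type UMIs amounted to 0.513 and 0.517 of the beta-type UMIs (0.515 ± 0.0031, SD, n = 2). Most single cells stood near this ratio: 110 and 181 cells, or 82.1% and 83.4%, fell between 0.4 and 0.6. In 1 cell of replicate 2 alpha-type exceeded beta-type UMIs, and 2 cells of replicate 1 were under 0.3. Hbb-bt made up 22.4% of the Hbb-bs and Hbb-bt UMIs in replicate 1 (22.2 to 22.5) and 22.0% in replicate 2 (21.9 to 22.2), or 22.2% ± 0.227 (SD, n = 2). Hba-a2 made up 42.3% and 41.9% of the adult alpha-type UMIs (42.1% ± 0.255). These are ratios of captured 3′ ends, not of protein chains.

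Embryonic chains were nearly missing from globin-high cells. Hbb-bh1 had 91 UMIs in replicate 1 and 13 in replicate 2, of which 90 and 13 came from 1 cell in each library. In these cells, of 9153 and 7220 UMIs, Hbb-bh1 was 1.78% and 0.324% of the beta-type UMIs, beside 3560 and 3002 UMIs of Hbb-bs. No other globin-high cell held more than 1 Hbb-bh1 UMI. Hbb-y and Hba-x each had 0 UMIs in replicate 1 and 1 UMI in replicate 2. The 0 for Hba-x allows a share of up to 0.00252% of alpha-type UMIs in replicate 1. This value depends on the limits used. With at least 500 UMIs and a 10% globin limit, Hba-x was a mean of 0.0614% of alpha-type UMIs over the libraries. At the main limits, embryonic genes as a sum gave 0.0392% (0.0316 to 0.0482) and 0.0034% of beta-type UMIs. No cell reached 5% embryonic beta-type UMIs, so a comparison of embryonic-chain with adult-chain cells could not be made.

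Cells differed far more in the balance of the beta-type genes than in that of the alpha-type genes. The share of Hbb-bt among Hbb-bs and Hbb-bt ranged from 1.87 to 30.9% (median 22.3) over the 134 cells of replicate 1 and from 1.68 to 31.1% (median 21.4) over the 217 cells of replicate 2. Its SD over cells was 6.29 and 4.74 points, where counting alone would give 1.18 and 1.16, so the variance was 28.3 and 17.2 times that of counting. The share of Hba-a2 among adult alpha-type UMIs ranged only from 35.8 to 49.5% and from 33.4 to 49.8%, and its variance was 1.87 and 2.46 times that of counting. Reads shared between the genes of a pair enter both measures, and their part in the difference was not tested. The alpha-type share of all globin UMIs lay between, with 11.7 and 10.5 times the counting variance.

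**Figure D2:**
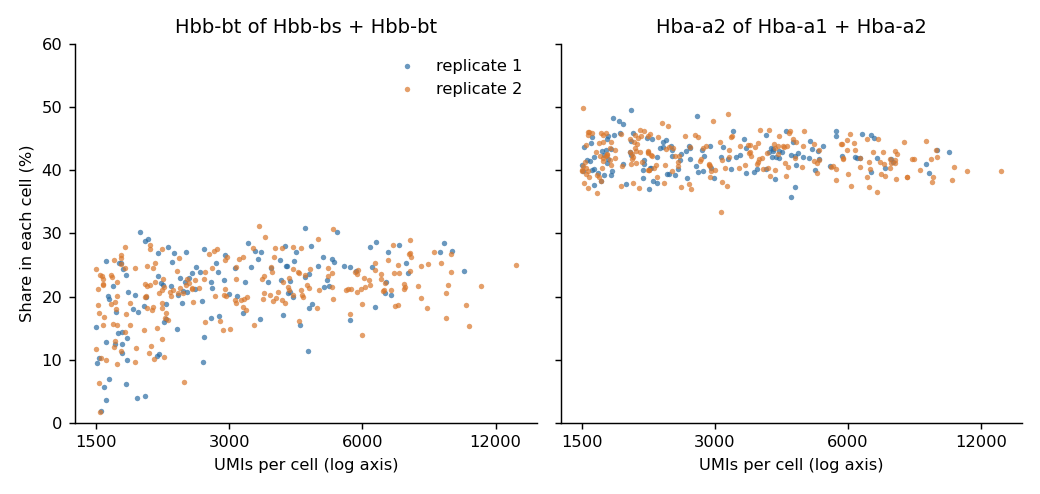
Each point is a globin-high cell, with its UMIs on a log axis and, on the y axes, the share (%) of Hbb-bt among Hbb-bs and Hbb-bt (left) or of Hba-a2 among Hba-a1 and Hba-a2 (right). Hbb-bt shares under 10% occur in 10 and 6 cells, none above 2620 UMIs, while Hba-a2 shares stay between 33.4 and 49.8%.

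Low Hbb-bt shares were found in cells with few UMIs. The 10 and 6 cells under 10% had at most 2620 and 2366 UMIs. Across cells the Spearman correlation of the Hbb-bt share with total UMIs was 0.477 (134 cells) and 0.302 (217 cells), as a description over cells that share a library. For the Hba-a2 share it was 0.049 and −0.105, and between the Hbb-bt share and the ratio of alpha-type to beta-type UMIs it was 0.008 and 0.054.

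Extending the count to globin-high barcodes below the UMI limit continued this order. In replicate 1 Hbb-bt made up 7.08% of adult beta-type UMIs in the 15 barcodes of 500 to 999 UMIs, 13.8% at 1000 to 1499, 16.0% at 1500 to 1999, 21.2% at 2000 to 2999, 22.9% at 3000 to 3999, 23.1% at 4000 to 5999 and 25.1% in the 15 cells from 6000. In replicate 2 the same bins gave 13.1, 16.3, 18.7, 20.7, 22.3, 22.2 and 23.1%. The share therefore rose with depth in both libraries, apart from the step to 4000 to 5999 UMIs in replicate 2, while Hba-a2 stayed between 40.9 and 42.8%. In the shallowest bin alpha-type UMIs were 0.659 and 0.669 of beta-type UMIs, above the 0.542 and 0.526 of the deepest bin. Over all 45 and 103 globin-high barcodes under 1500 UMIs, whatever their mitochondrial share, Hbb-bt was at 12.6% and 15.5%.

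**Figure D3:**
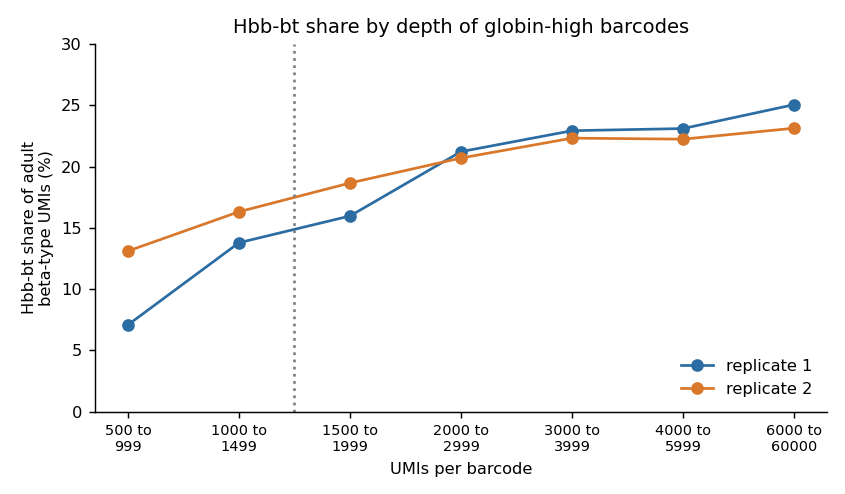
Points give the share (%) of Hbb-bt among adult beta-type UMIs, summed over the globin-high barcodes of each UMI bin in each replicate, and the dotted line marks the minimum of 1500 UMIs used for cells. The share goes from 7.08% to 25.1% in replicate 1 and from 13.1% to 23.1% in replicate 2.

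The genes that moved with the Hbb-bt share were then described by sorting the globin-high cells of each library by it into 3 groups of nearly equal size. This division was chosen after the values were seen and carries no test. The groups held 44, 45 and 45 cells in replicate 1, with shares of 1.87 to 19.6%, 19.9 to 24.5% and 24.5 to 30.9%. In replicate 2 they held 72, 72 and 73 cells. Levels are UMIs per 10000 UMIs outside the globin genes. Of 439 genes with at least 30 UMIs in each library, 49 were at least 2-fold higher in the high-share than in the low-share group in both libraries (11.2%), and 2 were at least 2-fold lower (0.456%), the synapse gene Nrxn3 and the receptor gene Erbb4. Of the 19 genes of the erythroid lists with enough UMIs, 12 were at least 2-fold higher, and 18 were higher in both libraries, against 153 of all 439 genes.

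All 3 measured genes of the red cell membrane were at least 2-fold higher. Slc4a1, the band 3 anion exchanger, was at 1.08, 4.80 and 7.30 in the low, middle and high groups of replicate 1 and at 1.17, 3.71 and 4.33 in replicate 2. Epb41, which encodes protein 4.1 of the membrane skeleton, was at 5.73, 12.9 and 19.9, and at 5.87, 10.3 and 12.6.

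Of the enzymes of redox balance and gas exchange, 4 of 6 were at least 2-fold higher. Blvrb (biliverdin reductase B) was at 7.53, 20.5 and 36.5 in replicate 1 and at 8.74, 17.0 and 28.2 in replicate 2. Car2, a carbonic anhydrase, was at 3.23, 11.4 and 22.1, and at 3.65, 7.28 and 12.6. Bpgm, which makes the regulator of oxygen affinity 2,3-bisphosphoglycerate, was at 27.2, 40.9 and 66.9, and at 11.2, 30.8 and 36.0. Gpx1, a glutathione peroxidase, was at 36.6, 58.1 and 94.9, and at 25.3, 59.8 and 86.8.

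Of heme synthesis genes, Urod and Fech were at least 2-fold higher. Alas2, the first and rate-limiting enzyme in red cells, was at 43.7, 49.3 and 72.5 in replicate 1 and at 23.1, 46.1 and 55.4 in replicate 2. None of the 3 measured iron genes reached 2-fold in both libraries: Slc25a37, the mitochondrial iron importer, was at 18.3 and 37.5 in the low and high groups of replicate 1 and at 11.9 and 23.7 in replicate 2, and the ferritin gene Ftl1 was at 181 and 153, and at 88.5 and 115. Of late maturation genes 3 of 4 (Ube2l6, Bcl2l1, Isg20) were at least 2-fold higher. Hba-a2 was at 42.4, 41.9 and 42.4% of adult alpha-type UMIs over the groups of replicate 1 and at 41.7, 41.4 and 42.4% in replicate 2.

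**Figure D4:**
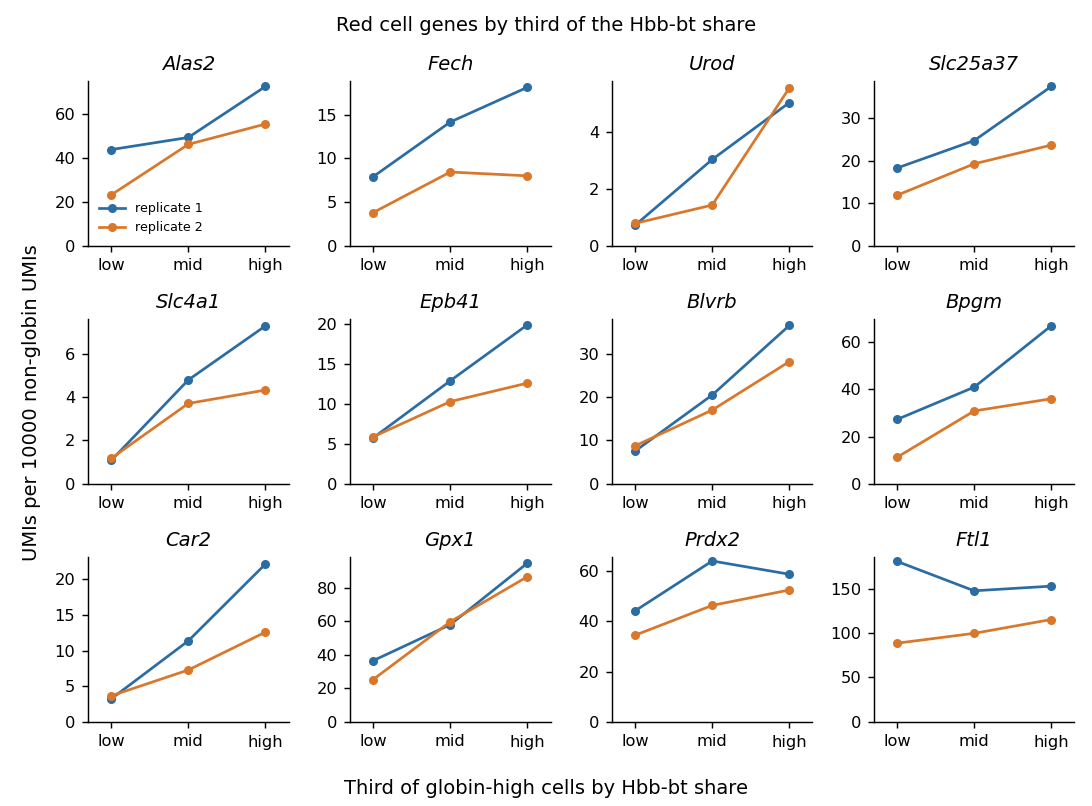
Each panel gives 1 gene's UMIs per 10000 UMIs outside the globin genes, in the low, middle and high groups of globin-high cells by Hbb-bt share, with a line per replicate. Blvrb goes from 7.53 to 36.5 and from 8.74 to 28.2, while the ferritin gene Ftl1 goes from 181 to 153 and from 88.5 to 115.

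Depth moved with the groups, since the median cell held 1931, 2825 and 4019 UMIs in replicate 1 and 2127, 3422 and 3798 in replicate 2. The 12 list genes were then recounted in subsets of the same cells. They had been picked for a rise in these cells. The recounts therefore cannot show whether the rise holds apart from depth or globin share. No recount of the other measured genes is given here. Among cells under the median UMI count 9 of the same 12 genes were at least 2-fold higher and 12 of 12 were higher in both libraries. The latter count includes 3 genes that had 0 UMIs in the low group of a library. Among cells at or over it, 3 of the 12 were at least 2-fold higher and 11 of 12 were higher. Median globin share moved as well, from 71.5 to 80.4% and from 68.8 to 79.2%. The cells of 50% globin or more were 128 of 134 and 202 of 217, nearly the same cells. With only these, 9 of the same 12 genes were at least 2-fold higher and 12 of 12 were higher in both libraries.

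The non-globin RNA of globin-high cells was then compared with that of all other cells, with UMIs summed per library and class. edgeR's quasi-likelihood test in its version 3 form, with the library as a block and Benjamini-Hochberg adjustment, called 416 of 18478 genes higher (2.25%) and 318 lower (1.72%). The count depends on how the spread is estimated from 2 libraries. The newer default of edgeR called 10 higher and 0 lower. In simulated data it recovered 0 of 100 genes changed by 1 on the log2 scale, where the version 3 form recovered 75. The simulation gave every gene the same spread and changed only genes with enough expected counts. Recovery in the real sums may therefore differ, and the simulation does not settle which count is right. At an unadjusted p under 0.05 the version 3 form had 1984 genes. DESeq2 called 366 higher and 114 lower, which made 76.3% of its calls higher, against 56.7% here. All p-values describe these 2 libraries.

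Heme synthesis was higher for 5 of 8 genes tested, with a median log2 fold change of 2.89, against −0.74 over all genes. The value over all genes was −0.16 with the 5891 genes at 0 UMIs in globin-high cells set at their limit, and 0.03 with DESeq2. Alas2 was at 5642 and 4120 CPM of non-globin UMIs in globin-high cells, and at 11.7 and 12.6 CPM in other cells, a log2 fold change of 9.06 (SE 0.38, adjusted p = 6.59e-120, edgeR). Fech (6.58), Urod (4.34) and Alad (2.32) of the same pathway were also called higher on the log2 scale. Cpox, Uros and Ppox did not pass the test.

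Redox and gas exchange enzymes were higher for 6 of 6 genes tested, with a median log2 fold change of 6.86. They were led by Blvrb and Car2 (both 7.36), followed by Bpgm (7.06), Gpx1 (6.67), catalase (Cat, 4.10) and peroxiredoxin 2 (Prdx2, 2.59). Membrane and skeleton genes were higher for 6 of 8 tested, out of 12 listed, with a median of 5.20. Slc4a1 was at 476 and 304 CPM in globin-high cells and at 0.0516 and 0.12 CPM in other cells, a log2 fold change of 12.32 (SE 0.45, adjusted p = 4.13e-155, edgeR). On the same scale, the blood group gene Kel (10.57), Rhd (5.44), the spectrin gene Sptb (4.96) and Epb41 (3.82) were called as well. Slc4a1 rested on 51 and 67 UMIs against 2 and 7 in other cells, which gave a ratio of 9220 in replicate 1 and 2532 in replicate 2, and a pooled ratio of 3884 (exact interval 1978 to 8705).

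Of 10 genes of iron and heme transport, 3 were higher, Slc25a37 (10.02) and the ferritin genes Fth1 (3.63) and Ftl1 (3.24). The transferrin receptor gene Tfrc, which takes up iron in earlier erythroblasts, had 5 and 10 UMIs in globin-high cells and did not pass the test. Late maturation genes were higher for 4 of 5 tested, out of 7 listed, with Isg20 (11.42), Ube2l6 (9.53), the mitophagy receptor Bnip3l (4.05) and Bcl2l1 (2.72).

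Regulators were sparsely detected. Of 6 erythroid transcription factor genes tested, Lmo2 was called higher (3.51), with 11 and 21 UMIs in globin-high cells. Klf1, the activator of the adult beta-type genes, had 3 UMIs in each library and did not pass the test (adjusted p = 0.0946, edgeR). Gata1 had 2 and 0 UMIs and was not tested. Among 7 regulators of the globin switch, 0 were higher and Sox6, a repressor of embryonic beta-type genes, was lower (log2 fold change −1.15, adjusted p = 0.0333, edgeR). Its call was lost under 5 other settings, among them DESeq2, the removal of doublets and the fit without the block. Bcl11a, another such repressor, had 17 and 52 UMIs in globin-high cells and did not pass the test (adjusted p = 0.12, edgeR). Cortical neurons also express both genes, and other cells had 302 and 257 CPM of Sox6 and 504 and 468 CPM of Bcl11a. Of 4 progenitor genes tested, 0 were called. A further member of the alpha-globin cluster, Hbq1a, had 17 and 16 UMIs in globin-high cells and 0 and 4 in other cells, and was called higher (log2 fold change 11.57, SE 1.22). Its near-identical copy Hbq1b had 8 and 14 UMIs, and the split between the copies is uncertain.

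The largest increases by the fixed rule included those of Slc4a1, Rsad2, Hbq1a, Isg20, Tent5c, AI662270, Trim10, Slc25a37 and Ube2l6. The 5 largest decreases were those of Fat4, Mgat4c, Hs3st4, Mid1 and St8sia4, each with 0 or 1 UMI per library in globin-high cells. With DESeq2 the calls of Fat4, Mgat4c, Hs3st4 and Mid1 were lost. Fat4 had 0 UMIs in both, against 2660 and 3695 in other cells, and was at least 7.15-fold lower over both libraries. Within replicates 1 and 2 alone the limit was 2.45-fold and 4.66-fold. Hs3st4 turned to a log2 fold change of 1.76 when the globin limit was set at 10%.

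Globin RNA was also counted in nearly every other cell, mostly at a low level. In the 5832 and 10030 cells under the 30% limit it was 11.0 and 19.96 per 10000 UMIs, with a median of 4 and 6 UMIs per cell, and 97.9% and 99.7% of these cells held at least 1 globin UMI. A few cells held much of it, since 16 and 71 cells with over 1% globin had 37.0% and 41.7% of these UMIs. Without them the level was 6.97 and 11.7 per 10000.

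The median number per cell hardly changed with cell depth, while the mean was larger in the deepest cells. In replicate 1 the median was 5 UMIs in cells of 1500 to 2999 UMIs and 4 in each deeper bin, and in replicate 2 it was 7, 7, 6, 6 and 6. The mean was 4.92 UMIs in the shallowest and 13.3 in the deepest bin of replicate 1, and 7.88 and 32.3 in those of replicate 2. As a share, globin fell from 21.3 to 6.396 per 10000 UMIs between the shallowest bin and that of 8000 to 11999 UMIs in replicate 1, and from 33.5 to 11.3 in replicate 2. It was 8.34 and 20.7 in the deepest bin.

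**Figure D5:**
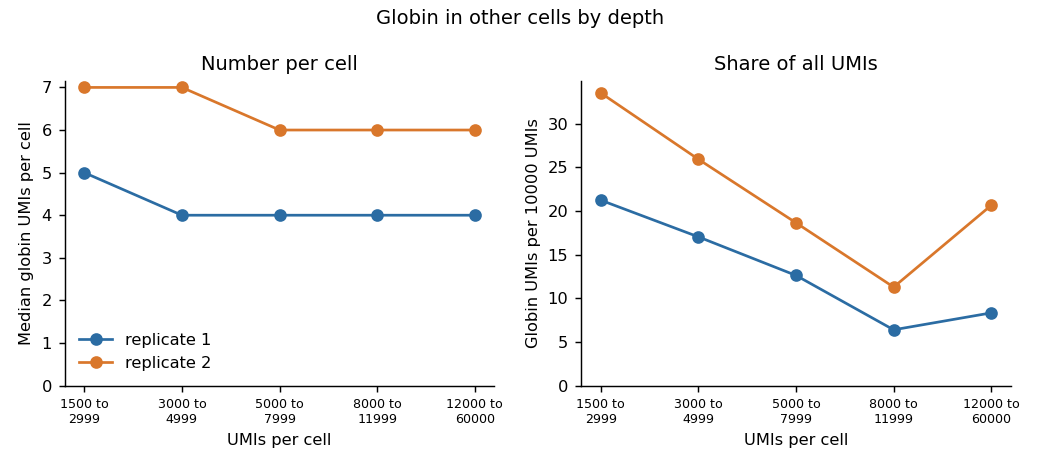
For cells under the 30% limit, the left panel gives the median globin UMIs per cell and the right panel the globin UMIs per 10000 UMIs, by UMI bin and replicate. The median stays at 4 or 5 UMIs in replicate 1 and at 6 or 7 in replicate 2 across depths.

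Cell types of the cortex were told apart by marker genes and held similar median numbers. Excitatory neurons (2533 and 4310 cells) had a median of 4 and 6 globin UMIs, GABAergic neurons (1935 and 3177 cells) 4 and 7, radial glia 4 and 6, intermediate progenitors 4 and 6, endothelial cells 4 and 6, fibroblasts 4 and 6, mural cells 3 and 7, and microglia and macrophages 5 and 6.5. The mean level did differ where 1 cell weighed heavily: mural cells (44 and 71 cells) reached 84.1 and 50.5 per 10000, with 1 cell over 1% globin in each library. Microglia and macrophages (32 and 64 cells) were at 7.66 and 54.5 per 10000, with 1 cell over 1% globin in replicate 2. After thinning every cell to 1500 UMIs, the share of cells with a globin UMI ran from 28.2 to 83.0% over these types and ungated cells in replicate 1 and from 67.8 to 91.1% in replicate 2. It was lowest in fibroblasts, whose median cell held 12140 and 9903 UMIs, and highest in cells of no gate, whose median cell held 3007.5 and 3051.5. These counts were taken as the level of free RNA by the rule that set the classes apart, and their source was not tested.

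The chains counted in the other cells had a lower Hbb-bt share than those of the globin-high cells. Alpha-type UMIs were 0.500 and 0.501 of beta-type UMIs, and Hba-a2 was at 42.5% and 42.0% of the adult alpha-type UMIs. Hbb-bt was at 19.7% (19.2 to 20.1) and 18.9% (18.6 to 19.1). This was 2.70 and 3.17 points under the globin-high cells of the same library. The intervals cover counting error only and do not allow for differences between cells. Among globin-high cells the variance of this share was 28.3 and 17.2 times that of counting. Without the cells over 1% globin the Hbb-bt share was 20.1% in both, and the ratio of alpha-type to beta-type UMIs was 0.473 and 0.486, against 0.513 and 0.517 in globin-high cells. The difference between the classes was not tested. Hba-x had 3 and 14 UMIs in these cells, Hbb-y 5 and 0, and Hbb-bh1 0 in both.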

How the data were processed

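Single-cell RNA from 2 libraries (replicates 1 and 2, 46398156 and 64324236 UMIs) was analysed. The deposited values are raw UMI counts per gene and barcode, made by the authors with Cell Ranger, version 7.1.0 per the file headers and 7.0.0 on mm10 per the submitters' processing notes. No barcode was under 500 UMIs.

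Members were taken by symbol. The members and gene lists were chosen with earlier results of these data known. Cells had 1500 to 60000 UMIs and under 10% mitochondrial UMIs, and doublets were kept. Ratios were computed from UMIs summed per library. Exact binomial (Clopper-Pearson) intervals are at 95%, and a count of 0 allows 3 counts. Non-globin genes were tested in edgeR 4.0.16 (R 4.3.3, TMM) on sums per library and class, with the library as a block, since both classes come from each library. The version 3 form of its quasi-likelihood test was taken after simulated counts (17280 genes) showed that it recovered 75 of 100 genes at a log2 change of 1 and 100 of 100 at 2, and the newer form 0 and 0. The version 3 form also called 7 unchanged genes in that run. The run used the same spread for every gene and changed only genes above a minimum expected count, whereas the real sums also hold genes with few UMIs. Named genes were the 10 largest increases and 5 largest decreases past an adjusted p of 0.05 that agreed in direction between libraries and reached 50 CPM in whichever class was higher, plus all list members. Other globin limits, UMI minimums, normalizations, DESeq2 1.42.0, doublet removal (Scrublet in scanpy 1.11.5) and fits without the block were the alternatives. Cell types of other cells were gated by at least 3 UMIs of at least 2 markers. Promoters were aligned with Biopython 1.88. Ahsp, Hbb-bh0 and Hbb-bh3 were not analysed here, and a few list genes counted in the totals are not reported here by name.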

Additional observations from a re-analysis of the deposited data

Results flagged for a closer look

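Hba-x, the embryonic alpha-type gene, was counted at high numbers in 3 barcodes under the minimum of 1500 UMIs, which no comparison above uses. A barcode of replicate 1 with 684 UMIs held 53 Hba-x UMIs beside 55 of Hba-a1, 38 of Hba-a2, 45 of Hbb-bs and 4 of Hbb-bt, with 0 of Hbb-y and of Hbb-bh1. A barcode of replicate 2 with 784 UMIs held 206 Hba-x UMIs, 98.6% of its alpha-type UMIs, beside 4 of Hbb-y, 1 of Hbb-bh1, 2 of Hbb-bs and 4 of Hbb-bt. Another of replicate 2, with 528 UMIs, held 24 Hba-x UMIs beside 4 of Hba-a1, 3 of Hba-a2, 2 of Hbb-y and 1 each of Hbb-bs and Hbb-bt. Each count exceeded the 3 that a count of 0 allows. Together they carried 283 of the 305 Hba-x UMIs over all 22605 barcodes. Their globin shares were 28.5, 28.1 and 6.63%, under the 30% limit.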

How the results depend on the processing

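Against 734 genes called between globin-high and other cells, the newer quasi-likelihood estimate called 10 (10 higher, 0 lower) and DESeq2 480 (114 lower). That estimate was added after it recovered no changed gene in the simulated data. A globin limit of 10% gave 351 (256 higher, 95 lower), 50% gave 1229 (714 lower), 70% gave 1360 (876 lower) and a minimum of 500 UMIs 1117 (570 lower). Without the replicate block, that is without the pairing by library, 746 were called. DESeq2 size factors moved the median log2 fold change of all genes from −0.74 to −0.63, and DESeq2 to 0.03. The ratio of alpha-type to beta-type UMIs was 0.520 from 500 UMIs and 0.521 from 500 UMIs with a 10% limit, and the Hbb-bt share 21.6% and 21.5%, or 22.8% at a 70% limit. Hba-x was 0.0614% of alpha-type UMIs with both changes. Other cells held 33.9 globin UMIs per 10000 at a 70% limit. In cells at or over the median UMI count, 3 of the 12 list genes were at least 2-fold higher with the Hbb-bt share. The combined limits and the splits by depth were chosen after seeing the data. The cause of these moves was not tested.

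Leaving out each replicate gave ranges of 0.513 to 0.517 for the chain ratio, 22.0 to 22.4% for Hbb-bt, 41.9 to 42.3% for Hba-a2, 0.0034 to 0.0392% for embryonic beta-type genes, 0 to 0.00047% for Hba-x, 11.0 to 19.96 per 10000 for other cells and 14 of 19 for the list genes in each library alone. The gene test has no residual degrees of freedom with 1 library and was not run so. No cell entered the comparison by embryonic share, so neither it nor its alternatives gave a value.

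Of 668 planned values for 61 named genes, 622 kept direction and call, 17 lost and 9 gained the call, and 20 changed sign. Hs3st4, called lower, went to 1.76 at 10%. All other sign changes were in genes not called, on the log2 scale: at 10% Cd34 −0.15 and Myb 0.56, at 50% Cd34 −0.23, Slc25a38 −0.058, Myb 0.41 and Ank1 0.31, at 70% Mb −5.88, Uros −0.66, Cd34 −10.30, Abcb10 −0.59, Slc25a38 −1.17 and Myb 0.89, without doublets Myb 0.23 and Ank1 0.0096, with DESeq2 size factors Myb 0.063 and Flvcr1 0.028, with DESeq2 Gata2 1.78 and Steap3 0.95, and from 500 UMIs Steap3 1.79. The newer estimate lost 27 calls. The globin-high cells held 107232 and 220617 non-globin UMIs in all, and whether low counts account for these changes was not tested.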
